A study of Homo sapiens with 8 samples.

Results

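The genes described here are those of 5 short structured RNAs that act without being translated: RN7SL1 and RN7SL2, which encode 7SL RNA, RN7SK, which encodes 7SK RNA, RPPH1, which encodes the RNA of RNase P, and RMRP, which encodes the RNA of RNase MRP. A called peak was counted for a gene when its midpoint lay in the RefSeq span of that gene on GRCh38 and on the strand of the gene. This took 15, 21, 20 and 15 peaks from the lists of replicates 1 to 4, which hold 267691, 281701, 288305 and 280619 called peaks. The genes were picked because earlier work on these lists had shown their low folds, so the folds are given as a description, with no test against input or between the RNAs.

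The study measured RNA bound by RBFOX2 in HEK293T, a human embryonic kidney cell line, by eCLIP, which crosslinks proteins to RNA with ultraviolet light, immunoprecipitates 1 protein with the RNA it holds and sequences that RNA. It comprises 4 RBFOX2 IP libraries and 4 paired input libraries, numbered 1 to 4 in both groups. Per the labels, each used ultraviolet light of 254 nm at 400 mJ per square centimetre, and 2% of the IP material kept as the input. All libraries share the cell line and the crosslinking, no library without crosslinking or with another antibody was analysed here, and whether the replicates were separate cultures is not given in the sources used here. Each list sets 1 IP library against the input of its own number and gives, per peak, a −log10 p and a log2 fold of IP over input.

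These RNAs are abundant in human cells and are made by RNA polymerase III. 7SL RNA is the scaffold of the signal recognition particle, which takes ribosomes making secreted proteins to the endoplasmic reticulum. 7SK RNA, in a particle with LARP7, MEPCE and HEXIM proteins, holds the elongation kinase P-TEFb inactive. RNase P cuts the leader off precursor tRNAs, and RNase MRP, which shares most of its protein subunits, takes part in ribosomal RNA processing. RBFOX2 binds GCAUG in pre-mRNA and controls splicing, and none of the 5 RNAs is a pre-mRNA.

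The spans are RN7SL1 on chromosome 14 from 49586580 to 49586878, RN7SL2 on chromosome 14 from 49862551 to 49862849, RN7SK on chromosome 6 from 52995620 to 52995951, RPPH1 on chromosome 14 from 20343071 to 20343411, and RMRP on chromosome 9 from 35657750 to 35658019. The RNAs are 299, 299, 332, 341 and 270 nt long. Each is a single non-coding transcript in RefSeq, with no intron, coding sequence or UTR. RN7SL1 lies inside the span of RPS29 and RN7SL2 inside that of the lncRNA LOC105378179, while the span of no other listed gene holds RN7SK, RPPH1 or RMRP.

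One stretch of sequence could be read from the reference tables. It is the start of RNase P RNA, which lies in the window RefSeq gives around the start of PARP2, the gene transcribed away from RPPH1 on the other strand. It is shown because it holds the peak nearest to a 5′ end in any of these RNAs. The capitals mark that peak, called in replicate 3 from position 3 to 13 of the RNA, and the stretch is chr14:20343385-20343411, minus strand, GRCh38.p14, written 5′ to 3′ as DNA.
RPPH1 positions 1 to 27: atAGGGCGGAGGGaagctcatcagtgg

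Every peak called in these RNAs lay far below input, and none was enriched. RN7SL2, RPPH1 and RMRP had peaks in each of the 4 lists, whereas RN7SL1 and RN7SK had 0 peaks on either strand in all of them. Enriched means here a −log10 p and a log2 fold that are both 3 or more, a limit that 0.861%, 0.848%, 0.789% and 0.775% of all called peaks passed in replicates 1 to 4, and 0 of the 71 peaks in these RNAs did. A peak was counted as low at a log2 fold of −2.5 or less, which held for 0.352%, 0.33%, 0.404% and 0.378% of all called peaks and for 71 of 71 peaks here. Because the genes were picked for such folds, nothing is read from that contrast. The deposited −log10 p was 0 for all 71, as it was for every peak with a negative fold in the lists, so it carries no information on how firmly a low fold was measured. A fold is a ratio, so little RNA in the IP and much RNA in the input cannot be told apart in it.

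7SL RNA had the lowest fold of all. RN7SL2 carried 1 peak in each list, with a log2 fold of −9.10, −10.62, −10.84 and −10.87 in replicates 1 to 4. Replicate 1 stood above the other 3, which lay close together. The mean was −10.36 ± 0.84 (SD, n = 4), which corresponds to 1312 times more signal in the input than in the IP. It was the lowest fold of the whole list in each of the 4 replicates. The second lowest peak of each list stood at −5.59, −5.52, −7.08 and −6.25. With the median fold of each list taken off, the 4 RN7SL2 ratios of input to IP fall at whole numbers. The smallest possible IP count gives such ratios, so the level and its SD may reflect the input alone. This was not tested.

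The RN7SL2 peak sat at the 3′ end of the RNA in every list. It spanned positions 242 to 307, 244 to 311, 255 to 301 and 246 to 305 of the RNA in replicates 1 to 4, and so ran between 2 and 12 nt past the annotated 3′ end at position 299. Within the annotated RNA it covered 58, 56, 45 and 54 nt, or 17.8% ± 1.92 (SD, n = 4), and the rest of the span held no called peak. No other peak lay within 3000 nt of RN7SL2 in any list.

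RN7SL1, whose RNA is almost the same as that of RN7SL2, held no peak. The nearest called peaks lay between 180 and 203 nt from it, on the opposite strand and inside the RPS29 span, with log2 folds of −0.49, 0.00, 0.42 and −0.00 in replicates 1 to 4. RN7SL3, another 7SL gene that RefSeq does not class as a pseudogene, held 1 peak of 13 nt in replicate 3 at a log2 fold of −7.08 and 0 in the other lists. How reads that match more than 1 copy were assigned is not given in the sources used here, so the values of RN7SL1, RN7SL2 and RN7SL3 cannot be taken as those of separate genes.

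The RefSeq table holds 981 further copies and pseudogenes of these RNAs, of which 685 are named for 7SL and 293 for 7SK. Only 21 of them held a called peak in any list, 16 of 7SL and 5 of 7SK, and 3 held one in all 4 lists. Outside RN7SL3, their 38 peaks had a median log2 fold of 0.00, and the highest −log10 p among them was 0.426. Many of the 38 carried exactly the median fold of all called peaks of their list. The counts behind them are unknown, so 0.00 is not taken as a firm level. None of these 38 peaks was enriched or low by the limits above.

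7SK RNA had no called peak. The closest peaks to RN7SK lay 978, 345, 347 and 2228 nt away in replicates 1 to 4, all on the strand opposite to RN7SK, and their log2 folds were within 0.00141 of 0. An RNA without a called peak has no fold in these lists, so 7SK RNA cannot be placed above or below the others.

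RNase P RNA came second. RPPH1 held 7, 13, 11 and 7 peaks in replicates 1 to 4, and the length-weighted mean of their log2 folds was −4.85, −4.60, −4.92 and −5.22. Replicate 4 was the lowest and replicate 2 the highest. The mean was −4.90 ± 0.26 (SD, n = 4), or 29.8 times more signal in the input. The single peaks of RPPH1 ran from −6.25, in replicate 4, to −3.86, in replicate 2, so that no RPPH1 peak reached the folds of RN7SL2 and none came near 0.

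RMRP, the RNA of RNase MRP, stood close to RPPH1. It held 7, 7, 8 and 7 peaks, with length-weighted means of −4.30, −4.04, −4.34 and −5.02 in replicates 1 to 4. As for RPPH1, replicate 4 was the lowest and replicate 2 the highest. The mean was −4.42 ± 0.42 (SD, n = 4), or 21.5 times more signal in the input, and the single peaks ran from −5.41 to −3.60.

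The order RN7SL2, RPPH1, RMRP, from lowest to highest, was the same in each list. RN7SL2 minus RPPH1 was −4.25, −6.01, −5.92 and −5.65 on the log2 scale in replicates 1 to 4. That is far more than the spread of either RNA between replicates, though the RN7SL2 level may reflect the input alone, as given above. RPPH1 minus RMRP was −0.54, −0.56, −0.58 and −0.21, with a mean of −0.47 ± 0.18 (SD, n = 4). Across lists the ranges of RPPH1 and RMRP overlapped, since RMRP in replicate 4 was lower than RPPH1 in replicates 1, 2 and 3.

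**Figure D1:**
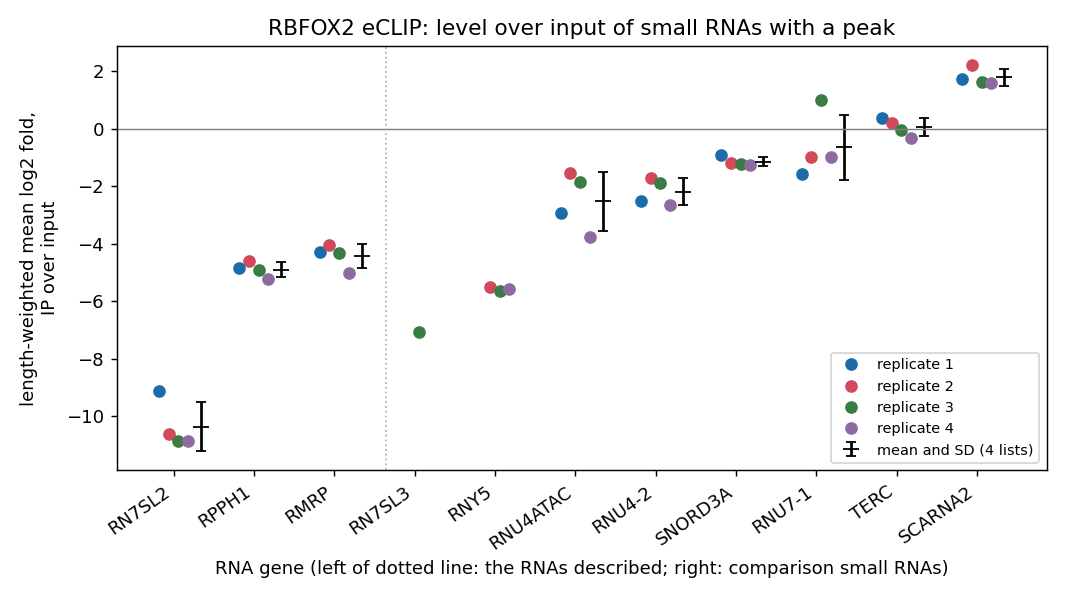
Length-weighted mean log2 fold of IP over input (vertical axis) for RN7SL2, RPPH1 and RMRP and for the 8 comparison small RNAs with a peak (horizontal axis); points are the 4 lists, and bars are the mean and SD where all 4 lists had a peak. RN7SL2 lies between −10.87 and −9.10, RPPH1 and RMRP between −5.22 and −4.04, and SCARNA2 is the highest at 1.77.

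Peaks in RPPH1 and RMRP were short and lay side by side. Over all member RNAs the median peak length was between 14 and 18 nt in the 4 lists, against 47 to 50 nt for all called peaks. In RPPH1 4, 6, 7 and 2 pairs of neighbouring peaks touched with no base between them, and in RMRP 3, 4, 4 and 3 pairs did. Called peaks covered 56.9% ± 11.03 of RPPH1 and 38.0% ± 3.09 of RMRP (SD, n = 4 for both).

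Both RNAs showed a block of peaks on the 5′ side, a stretch without any peak in any list, and a block on the 3′ side. In RPPH1 the 5′ block ran from position 3 to 124, the empty stretch from 125 to 169, a length of 45 nt, and the 3′ block from 170 to 300. In RMRP the 5′ block ran from 41 to 111, the empty stretch from 112 to 192, a length of 81 nt, and the 3′ block from 193 to 250. These borders were taken from the peaks themselves.

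The 5′ block was the lower of the pair in both RNAs and in each list. In RPPH1 it stood at −5.25, −4.96, −5.12 and −5.67 and the 3′ block at −4.19, −4.34, −4.73 and −4.81 in replicates 1 to 4. The difference, 5′ minus 3′, was −0.73 ± 0.29 (SD, n = 4), between −1.06 and −0.38. Single peaks of RPPH1 went against this order in replicates 2 and 4. In replicate 4 the 3′ peak at positions 275 to 290 had a log2 fold of −6.25, the lowest of any RPPH1 peak and the second lowest peak of that list. In replicate 2 the 3′ peak at positions 269 to 296, at −4.84, lay just below the 5′ peaks at 42 to 61, at −4.79, and 64 to 82, at −4.83. The RPPH1 3′ block was itself uneven. Its region from 170 to 255 averaged −4.35, and that from 269 to 296 averaged −5.31 over the 3 lists that called it. Replicate 1 had no peak past position 255, so its difference of −1.06 rests on other positions than those of replicates 2, 3 and 4. In RMRP the 5′ block stood at −4.40, −4.18, −4.56 and −5.27 and the 3′ block at −4.08, −3.74, −3.99 and −4.66. The difference was −0.49 ± 0.13 (SD, n = 4), and every 5′ peak lay below every 3′ peak of the same list.

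**Figure D2:**
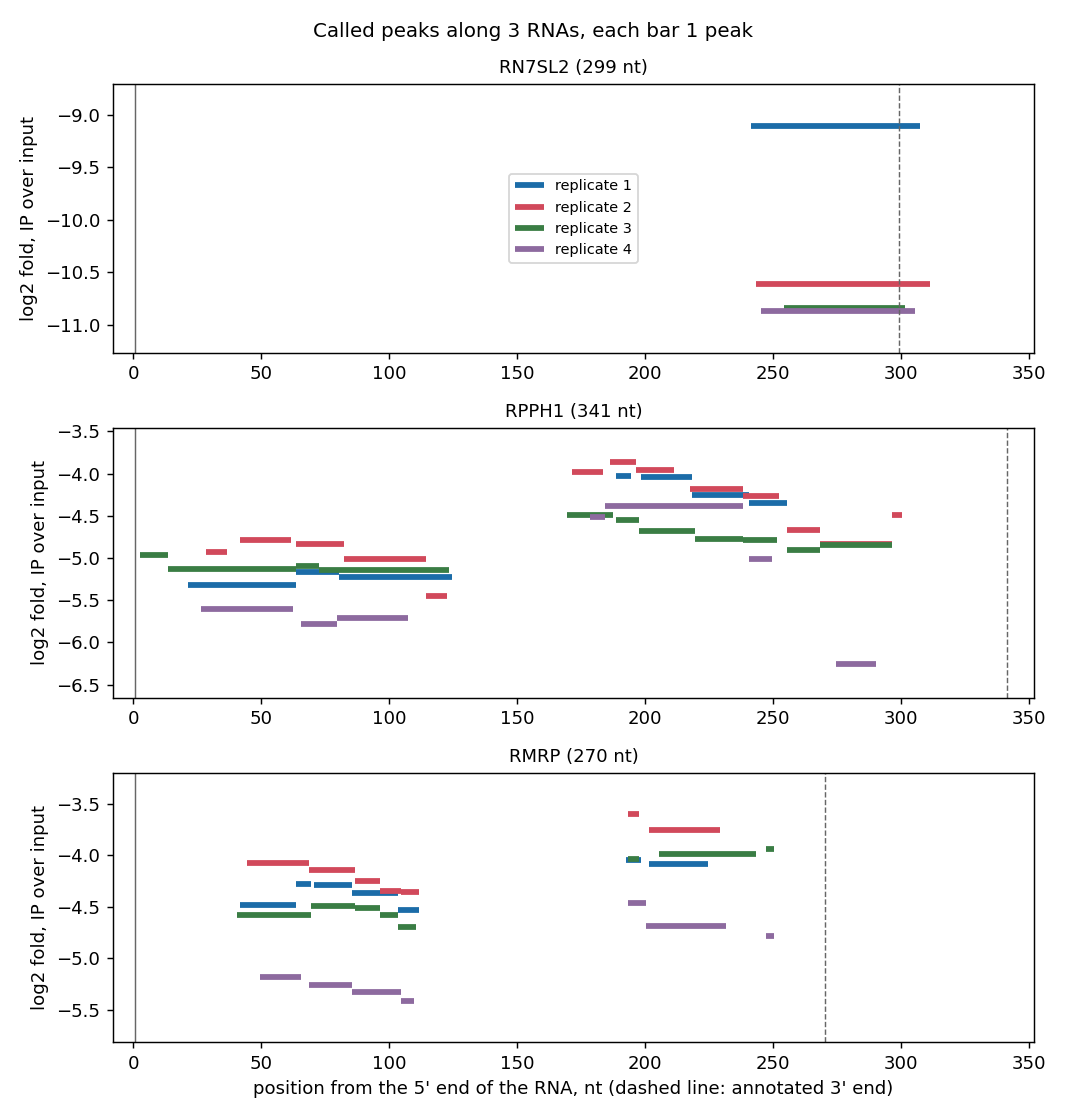
Log2 fold of IP over input (vertical axis, a separate scale for each panel) of each called peak against position from the 5′ end of the RNA in nt (horizontal axis), for RN7SL2, RPPH1 and RMRP; each bar is 1 peak, coloured by list, and the dashed line is the annotated 3′ end. RN7SL2 has 1 peak per list at its 3′ end. RPPH1 and RMRP have a 5′ block with a lower mean and a 3′ block with a higher mean on either side of an empty stretch. Past position 255, the RPPH1 peaks of replicates 2, 3 and 4 lie below the rest of the 3′ block of their list.

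Where all 4 lists had a peak, the shape along RPPH1 and RMRP recurred between lists. Such positions made up 34.9% of RPPH1 and 29.3% of RMRP, and they leave out all of RPPH1 past position 255. Over the 119 nt of RPPH1 that a peak covered in all 4 lists, Pearson's r of the log2 fold per nt lay between 0.959 and 0.987 over the 6 pairs of lists, and over the 79 nt of RMRP between 0.824 and 0.975. Nucleotides of 1 peak share its value, so these describe the profiles and are not evidence from independent points.

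Overlapping peaks of the 4 lists formed 12 regions in these RNAs, of which 7 had a peak in every list. By their mean log2 fold these 7 ranked 1, 2, 3, 5, 9, 10 and 12 from the bottom of the 49493 regions with a peak in all 4 lists. The RN7SL2 region was the lowest, followed by RPPH1 positions 64 to 124 at −5.27 ± 0.32 and RPPH1 positions 14 to 63 at −5.22 ± 0.32 (SD, n = 4 for both). The lowest RMRP region covered its whole 5′ block at −4.60 ± 0.47 (SD, n = 4). All 7 were low in each list, and 0.0788% of the 49493 regions were. Regions enriched in all 4 lists made up 1.07% of the total and 0 of these 7. As the genes were picked for low folds, nothing is read from these ranks and shares.

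Of the regions that missed 1 or more lists, RPPH1 positions 269 to 296 were called in 3 lists, with means of −4.84, −4.85 and −6.25 in replicates 2, 3 and 4. RPPH1 positions 256 to 268 and RMRP positions 248 to 250 were called in 2 lists each. The peak printed above in capitals was 1 of the 2 regions seen in a single list, at −4.97.

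RN7SL2 ranked 1, RPPH1 3 and RMRP 7 from the bottom of the 15632 annotated spans with a peak in all 4 lists, taking the mean over the lists. The other spans took peaks of both strands, including those of a gene that holds them. Over the 15632 spans the median was 0.10, with a 5th percentile of −0.58 and a 95th percentile of 1.26. Among the 430 spans of at most 500 nt, the median was −0.42 and the 5th percentile −3.41. The ranks of the 3 RNAs follow from how the genes were picked.

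**Figure D3:**
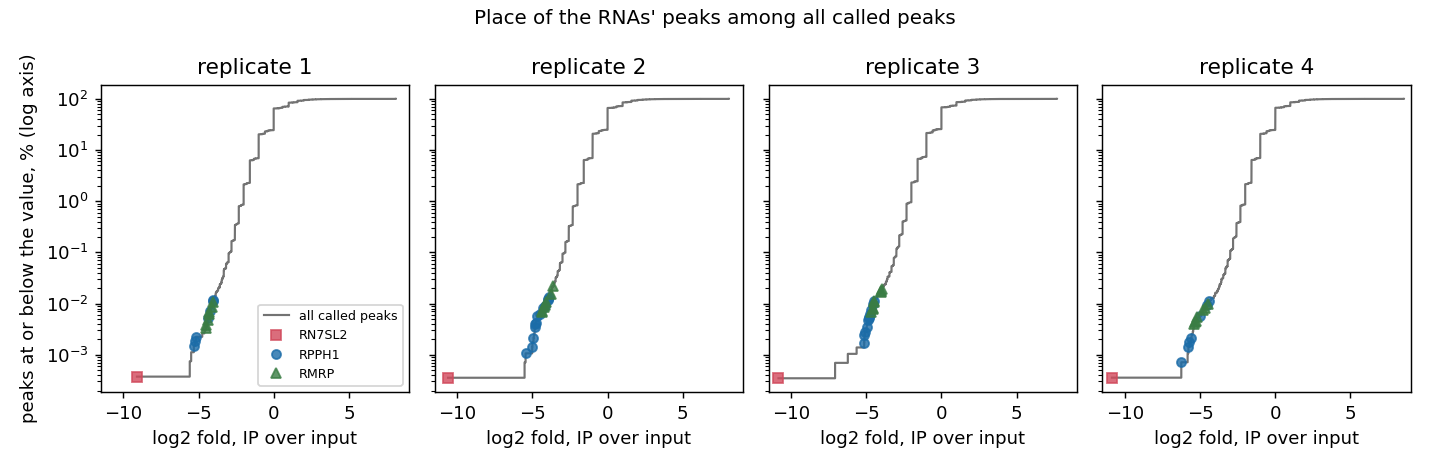
Share of called peaks at or below each log2 fold (vertical axis, log scale, in percent) against the log2 fold of IP over input (horizontal axis), 1 panel per list; the grey line is all called peaks and the symbols are those of RN7SL2, RPPH1 and RMRP. The RN7SL2 peak is the lowest of each list, and all RPPH1 and RMRP peaks lie among the lowest 62 peaks of their list.

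The low end of the lists held other short non-coding RNAs too. Peaks with their midpoint in a non-coding span of at most 500 nt made up between 13.9% and 16.6% of the low peaks, against 0.370% to 0.404% of all called peaks, and most of these lay in snoRNA spans. These shares include the RNAs described here, which gave 15, 21, 20 and 15 of the 149, 129, 185 and 176 low peaks in such spans. All low peaks numbered 941, 930, 1165 and 1062 in replicates 1 to 4. Of the 10 lowest peaks, the RNAs described here gave 6, 5, 5 and 5.

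The short spans closest in level were snoRNAs and 5S rRNA pseudogenes. By the mean absolute difference of the log2 fold over the 4 lists, the span nearest to both RPPH1 and RMRP was SNORA64, an H/ACA snoRNA, a class that guides pseudouridylation. Its level was −4.33, −4.12, −4.80 and −4.98, a mean absolute difference of 0.341 from RPPH1 and 0.152 from RMRP. The next were RNA5SP145, at 0.588 from RPPH1, and SNORA3A, at 0.444 from RMRP. RN7SL2 had no near neighbour, since the closest span, RNA5SP141, differed by 5.58.

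Not every structured small RNA was low. Of 25 comparison RNAs (Y, vault, spliceosomal, telomerase and other small RNAs), 17 held no called peak in any list, as RN7SL1 and RN7SK did, and 6 held one in all 4. RNY5, a Y RNA, had 1 peak in each of replicates 2, 3 and 4, at −5.52, −5.64 and −5.57. RNU4ATAC, an RNA of the minor spliceosome, averaged −2.52 ± 1.02, and RNU4-2, a U4 RNA, −2.20 ± 0.47. SNORD3A, the U3 snoRNA, averaged −1.16 ± 0.16. TERC, the RNA of telomerase, lay near 0 at 0.05 ± 0.30, and SCARNA2, a Cajal body RNA, was above input at 1.77 ± 0.29 (SD, n = 4 for each). SCARNA2 had an enriched peak in replicate 2 alone, and 0 of the 25 had one in at least 3 lists.

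The genes of the partner proteins listed for these RNAs did not share their folds. Their levels were taken over whole gene spans and peaks of both strands, so they are not levels of the mRNAs alone. All 8 listed genes of the signal recognition particle and its receptor had called peaks in all 4 lists, and their mean log2 folds lay between −0.91, for SRP9, and 0.67, for SRPRA, with a median of −0.20. The 7 genes of the 7SK particle and P-TEFb lay between −0.65, for HEXIM2, and 0.54, for MEPCE, with a median of −0.06. The 11 protein genes of RNase P and RNase MRP lay between −0.80, for POP5, and 3.44, for RPP40, the widest range of the 3 groups, with a median of 0.00. The median over the 11737 protein-coding spans with a peak in all 4 lists was 0.12.

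RPP40, a protein subunit of RNase P and RNase MRP, was the one partner gene with enriched peaks in at least 3 lists, at 0 of 8, 0 of 7 and 1 of 11 genes in the 3 groups. Of all protein-coding spans with a peak, 3.82% met that limit. An RPP40 region on chromosome 6 from 5000886 to 5001135, minus strand, had an enriched peak in each list, with log2 folds of 4.64, 4.00, 3.09 and 4.32 and −log10 p of 6.09, 3.84, 3.40 and 4.68 in replicates 1 to 4. Its mean was 4.01 ± 0.67 (SD, n = 4). A neighbouring region from 5000707 to 5000855 averaged 3.79 ± 0.70 (SD, n = 4) and passed the limit in replicates 1 and 2. Both lie inside the RPP40 span and no other, and whether they are exonic or intronic was not determined here, since only spans were used.

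In the other direction, a low peak in at least 3 lists was found for 1 of 8, 0 of 7 and 0 of 11 partner genes, and for 1.66% of all protein-coding spans with a peak. The one gene was SRP9, which binds the Alu domain of 7SL RNA. No place in its span was low in all 4 lists, and over all its peaks the level was −0.91 ± 0.27 (SD, n = 4).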

How the data were processed

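RBFOX2 eCLIP peak lists of 4 HEK293T IP libraries, each against its paired input, were analysed. Per the submitters' processing notes, UMI-tools 1.1.1, cutadapt 3.2 and STAR 2.7.7a were used with builds hg38 and GRCh38.p13. The peak caller, the p-value test and the treatment of reads with several matches are not given in the sources used here. The lists have no header: from the values, the authors deposited a −log10 p-value (0 to 400) and a log2 fold of IP over input per peak, with scaling unstated. Read counts were not used here, so the depth behind a fold is unknown, and folds carry no counting interval. The inputs enter only through these ratios.

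Peaks were assigned by midpoint to RefSeq spans of GRCh38.p14. That table gives no strand, so the strand of each RNA was taken from general knowledge, and both strands were searched. All other spans took peaks of both strands. The level of an RNA is the mean log2 fold of its peaks weighted by peak length. Peaks overlapping by at least 1 nt on 1 strand formed regions. The genes, lists and limits were chosen with earlier results of these data known, and the −2.5 limit after seeing the folds. Named were all 5 genes, listed genes with enriched peaks in at least 3 lists, and the 2 nearest spans of at most 500 nt; the other list members were named after their values were seen. Assignment and merging were tested on simulated data. Python 3.11.15, numpy 2.4.6, pandas 2.3.3 and matplotlib 3.10.9 were used.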

Additional observations from a re-analysis of the deposited data

Results flagged for a closer look

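Each of 27 quantities was checked over the 4 lists for 1 list apart from the other 3 by Dixon's criterion (a gap that takes up nearly the whole range), and chance flags about 1 in 20 such groups. The quantities share peaks, so the number past the criterion is not set against that rate. The RN7SL2 log2 fold was −9.10 in replicate 1, above the other 3. RMRP had 8 peaks in replicate 3 against 7 in each other list, which passes by the tie alone, and its covered share there was 42.6%. The difference of RPPH1 minus RMRP was −0.21 in replicate 4, smaller than in the others.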

How the results depend on the processing

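The 6 results above or below 0 gave 35 alternative values, of which 35 kept their direction and stayed within 1.5 times for a count or 1 SD for a level. Much of this was fixed in advance. Leaving out 1 replicate cannot move a mean by 1 SD, and levels of all-negative peaks cannot change direction. The overlap rule gave the same values as the midpoint rule, and the RN7SL2 median is of 1 peak per list. Only the medians of RPPH1 and RMRP and the lower limits could have moved a value past these margins. The other 5 results (enriched peaks, regions enriched in all lists, and the share of each RNA with a log2 fold of at least 1) were 0 and stayed 0 under the alternatives. That shows no stability, since every peak has a negative fold and a −log10 p of 0, and leaving out a list or tightening a limit could not change a 0. Leaving out 1 replicate gave levels from −10.78 to −10.19 for RN7SL2, −5.00 to −4.79 for RPPH1 and −4.55 to −4.23 for RMRP. The 5′ minus 3′ difference lay between −0.85 and −0.62 in RPPH1 and between −0.54 and −0.44 in RMRP. Lower limits of −3 and −4 and the block comparison were added after seeing the data. The planned level from the peak with the highest −log10 p could not be given, since all were 0, and the GCATG search was not run because no sequence of the full RNAs was used. No paired analysis was possible because the inputs have no list of their own: a fold is already a ratio within a numbered pair. Without read counts, the precision of a single fold is unknown.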
